A study of Rattus norvegicus with 10 samples.

Results

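The genes described here serve the cholinergic neuron, the cell that makes and releases acetylcholine. They are Chat (choline acetyltransferase), Slc18a3 (the vesicular acetylcholine transporter, VAChT), Slc5a7 (the high-affinity choline transporter, CHT1) and Ache (acetylcholinesterase), 4 genes of the 32883 in the table. They were chosen by name, with earlier results of these data known. The table lists genes by Ensembl identifier, and symbols were taken from the rows of the study's own gene table that could be read. Those rows gave an identifier for Slc18a3 and Slc5a7. None was found for Chat and Ache, which are not analysed here, and the comparison of Slc18a3 with Chat was not made. The readable rows hold genes that the authors had called higher with treatment. Of 1830 symbols with an identifier that were tested, 1830 were higher with TSA or NaB and 1826 were called higher. The direction of a named gene is therefore no independent evidence here, and its size of change is conditioned on the same choice. Levels in each library and differences between experiments are described as measured.

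RNA was sequenced from 10 cultures of cortex of newborn Wistar rats, in which neurons and glia grew together to day 14 in vitro. Trichostatin A (TSA, 100 nM) was given for 19 h to 3 cultures with 3 control cultures, and sodium butyrate (NaB) for 24 h to 2 cultures with 2 control cultures. The dose of NaB is 5 µM in the labels, while the study's methods write the same figure in mM. Both drugs inhibit histone deacetylases, the enzymes that take acetyl groups off histones. According to the study's text the NaB cultures belonged to another project, for which controls were kept for the same time, so drug, time and project cannot be told apart. Each library held between 26070908 and 27649249 reads, and 3 reads of a gene, the limit used for a gene without reads, came to between 0.109 and 0.115 CPM (counts scaled to a common library total). That limit covers counting error only. Values below are normalized counts, that is, reads of a gene divided by the size factor of its library, and since they were not divided by gene length, no level is ranked between genes. The cultures are mixtures, so more cells of a type and more RNA per cell cannot be told apart. The neuron label could not be checked, since none of the 7 pan-neuronal marker genes listed had an identifier.

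Acetylcholine is made from choline and acetyl-CoA by choline acetyltransferase in the nerve terminal. VAChT exchanges protons for acetylcholine and so fills the synaptic vesicles, acetylcholinesterase splits the released transmitter, and CHT1 brings the freed choline back into the terminal, the step that limits synthesis. In mammals the VAChT gene sits within the Chat gene, an arrangement known as the cholinergic gene locus. In the forebrain the main cholinergic neurons are those of the basal forebrain and the interneurons of the striatum, and the cortex has only a sparse population of its own.

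The upstream sequences of both measured genes are shown because they are the stretches nearest to the start of transcription, where histone acetylation is commonly found at active genes. They are the 250 bases before the annotated start in RefSeq (GRCr8). The authors mapped to another build, Rnor_6.0, so these positions are not those of the counts. Capitals mark the motifs that a search on both strands found, the GC box GGGCGG (or CCGCCC on the other strand) and the TATA box TATAAA. The window of Slc18a3 is chr16:7722815-7723064 on the minus strand, and that of Slc5a7 is chr9:7953510-7953759 on the minus strand.

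Slc18a3: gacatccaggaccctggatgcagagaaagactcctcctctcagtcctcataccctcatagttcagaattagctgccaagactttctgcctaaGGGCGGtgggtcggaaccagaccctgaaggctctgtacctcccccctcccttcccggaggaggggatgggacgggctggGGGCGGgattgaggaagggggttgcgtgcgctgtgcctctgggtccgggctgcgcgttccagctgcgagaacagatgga

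Slc5a7: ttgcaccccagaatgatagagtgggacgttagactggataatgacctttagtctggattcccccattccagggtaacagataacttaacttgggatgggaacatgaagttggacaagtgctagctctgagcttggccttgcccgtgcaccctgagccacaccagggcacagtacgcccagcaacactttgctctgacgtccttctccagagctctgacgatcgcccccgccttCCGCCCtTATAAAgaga

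The sequence upstream of Slc18a3 held 61.6% G and C and carried 2 GC boxes, which began 158 and 79 bases before the start. That of Slc5a7 held 53.2% G and C and carried 1 GC box on the other strand, 17 bases before the start, and a TATA box that began 10 bases before it. The GC box letters were found in 30.5% and the TATA box letters in 12.9% of 33469 RefSeq windows of the same length. The letters TTCAGCACC and GGACAG, the left and right parts of the site of the repressor REST, and the cAMP response element TGACGTCA had no match in either window. They were found in 0.305%, 18.2% and 1.59% of all windows. A match or its lack is a description of these letters alone. In the RefSeq gene table Slc18a3 lies within the span of Chat, on the same strand, and its start lies 602 bases downstream of that of Chat. Strand therefore cannot separate reads of the genes, and how reads shared by them were counted is not given in the sources used here, so the counts of Slc18a3 are uncertain to that extent.

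Slc18a3 (ENSRNOG00000062141), which fills vesicles with acetylcholine, was low in every control culture and several times higher in every treated culture. Its normalized counts were 50.6, 39.1 and 77.9 in the TSA controls and 300.1, 217 and 278 with TSA. In the NaB experiment they were 37.3 and 43.9 in the controls and 223 and 261 with NaB. The lowest treated culture of each experiment lay above its highest control, and the treated cultures of the experiments overlapped each other. The mean rose from 55.9 ± 19.9 to 265 ± 43.0 with TSA (SD, n = 3) and from 40.6 ± 4.65 to 242 ± 27.0 with NaB (SD, n = 2). On the scale of log2(normalized count + 1) the change was 2.27 with TSA (SE 0.24, adjusted p = 2.31e-05) and 2.55 with NaB (SE 0.29, adjusted p = 6.25e-05), from limma's moderated test with Benjamini-Hochberg adjustment over 15717 genes. A gene was called when its adjusted p lay under 0.05 and its log2 fold change was at least 0.5 in size.

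Slc5a7 (ENSRNOG00000010597), which returns choline to the terminal, was higher in the treated cultures as well, from a level that differed between the sets of controls. Its normalized counts were 34.8, 25.8 and 34.1 in the TSA controls and 180.1, 126 and 144 with TSA. They were 13.5 and 5.22 in the NaB controls, where the second value stands for 5 reads, and 106 and 62.7 with NaB. The treated cultures again lay above the controls of their experiment without overlap. Here the cultures with NaB also lay below all cultures with TSA, but the share of all tested genes with that order was not computed. The log2 difference between the treated groups was -0.86. It was not called in a fit that took all 5 controls as 1 group (limma, adjusted p = 0.517). That fit counts the gap between the sets of controls as spread, which widens its error. It therefore cannot decide whether the treated groups differ. The mean rose from 31.6 ± 5.05 to 149.9 ± 27.7 with TSA (SD, n = 3) and from 9.34 ± 5.83 to 84.3 ± 30.5 with NaB (SD, n = 2). The log2 change was 2.21 with TSA (SE 0.33, adjusted p = 2.17e-04) and 3.12 with NaB (SE 0.40, adjusted p = 1.22e-04) in the limma fit.

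Both genes were thus called higher with both drugs. In all, 22.5% of the 15717 tested genes were called higher with TSA and 33.1% had all treated cultures above all controls. With NaB, 21.2% were called higher and 40.2% had no overlap in that direction. The naming of the genes used the TSA contrast, so nothing is read from their TSA calls. Both genes stand in the readable rows of both drugs, so the authors had called them higher with NaB as well. The TSA rows would have named them without the NaB cultures. Of the 1755 tested genes with a name through the TSA rows, 87.2% were called higher with NaB, so the NaB calls do not set these genes apart. Among the 1830 named genes, 62.1% had a lower log2 change with TSA than Slc18a3 and 60.1% than Slc5a7. With NaB these shares were 70.2% for Slc18a3 and 80.7% for Slc5a7. The median change over all tested genes was 0.022 with TSA and 0.020 with NaB.

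**Figure D1:**
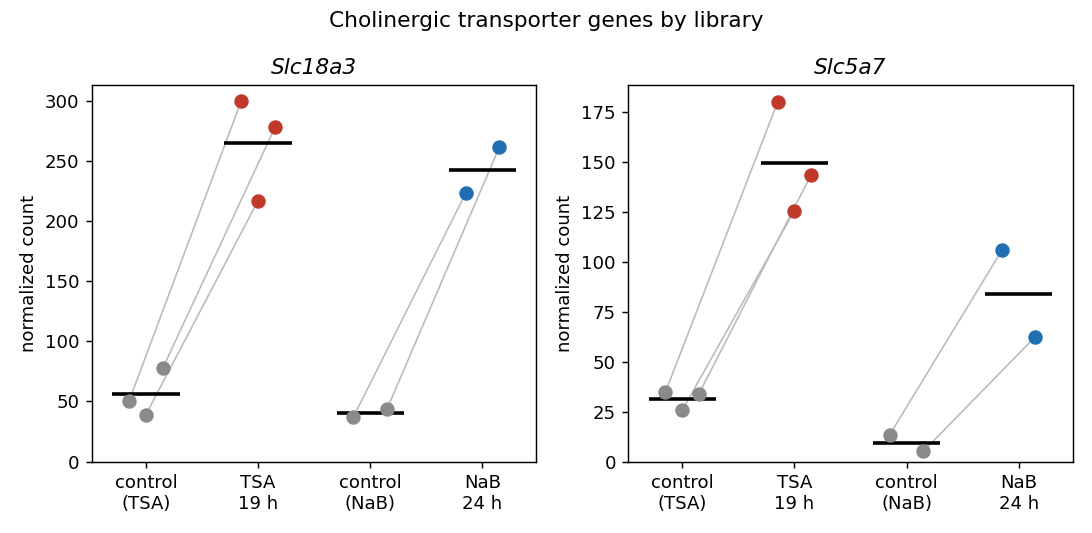
Normalized counts (linear axis from 0) of Slc18a3 and Slc5a7 in each of the 10 cultures; points are cultures, black bars are group means, and thin lines join cultures taken as pairs. Every treated culture lies above the controls of its experiment, and the NaB controls of Slc5a7 (13.5 and 5.22) lie below its TSA controls (25.8 to 34.8).

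Cultures were taken as pairs by the numbers in the titles for TSA and by consecutive library names for NaB. The study's methods state that such cultures shared a plate, but the labels name no plate, so the pairs are inferred. Within pairs the log2 change of Slc18a3 was 2.54, 2.44 and 1.82 with TSA and 2.55 and 2.55 with NaB. The smallest change belonged to the TSA pair whose control was the highest of all controls, 77.9. For Slc5a7 the changes were 2.34, 2.24 and 2.04 with TSA and 2.89 and 3.36 with NaB. The largest belonged to the NaB pair whose control had 5 reads. With each library left out in turn, the change of Slc18a3 ran from 2.05 to 2.53 with TSA and from 2.43 to 2.66 with NaB, and that of Slc5a7 from 2.07 to 2.33 and from 2.51 to 3.73. Both genes stayed called in all 22 alternative settings with either drug.

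Ordered by mean, the groups of Slc18a3 were the NaB controls, the TSA controls, NaB and TSA. The controls overlapped (37.3 and 43.9 against 39.1 to 77.9), their log2 difference was -0.40 (95% interval -0.99 to 0.19) and it was not called in the limma fit (adjusted p = 0.447). The order was the same for Slc5a7, but its controls did not overlap. Slc5a7 was 3.38-fold lower in the NaB controls than in the TSA controls, a log2 difference of -1.77 (SE 0.37, 95% interval -2.58 to -0.95) that was called in the limma fit (adjusted p = 0.0419). Between the sets of controls 1.55% of the tested genes were called, 0.56% of the tested genes were called lower in the NaB controls, and 19.8% lay lower without overlap. The call was close to the threshold: it held in 8 of 19 alternative settings, with adjusted p from 0.0095 to 0.240, and it held with a library left out only for TSA control replicate 2 and NaB control replicate 4. Without NaB control replicate 5, the culture with 5 reads, the difference was -1.16 (adjusted p = 0.240).

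The drug effects were compared as NaB effect minus TSA effect. For Slc18a3 the difference was 0.28 on the log2 scale, with a 95% interval from -0.56 to 1.12 (limma, adjusted p = 0.813). For Slc5a7 it was 0.91, with an interval from -0.24 to 2.06 (adjusted p = 0.503). Neither was called. With all 5 controls as 1 group, which sets the treated cultures of the experiments against each other, the direction turned, to -0.12 for Slc18a3 and -0.86 for Slc5a7. For Slc5a7 the difference ran from 0.30 without NaB control replicate 5 to 1.52 without NaB control replicate 4. Over all tested genes the comparison called 47, or 0.299%, and 404, or 2.57%, with the pairs as a term in the fit, while 12.6% had an unadjusted p under 0.05. Slc18a3 and Slc5a7 were called in none of the 21 alternatives of that comparison.

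Slc18a3 and Slc5a7 were also compared with each other inside each culture, a comparison chosen after the values were seen, in place of that with Chat. The log2 difference, Slc18a3 minus Slc5a7, holds the unknown ratio of their lengths, so its change between cultures is what can be read. It was 0.53, 0.59 and 1.17 in the TSA controls and 0.73, 0.78 and 0.95 with TSA. It was 1.40 and 2.85 in the NaB controls and 1.07 and 2.04 with NaB. All 4 cultures of the NaB experiment held relatively more Slc18a3 than most cultures of the TSA experiment, and treated and control values overlapped in both. Treatment moved the difference by 0.061 with TSA and by -0.57 with NaB. Over both experiments it moved by -0.26, with p = 0.567 in an exact two-sided permutation test of 120 arrangements within experiments, where the smallest possible p was 0.0167. It turned to 0.11 without NaB control replicate 5, the culture with 5 reads of Slc5a7, and was -0.62 without NaB control replicate 4, -0.012 without NaB replicate 1 and -0.50 without NaB replicate 2. Taken alone, the TSA experiment cannot give a p under 0.1 and the NaB experiment none under 0.33, and their exact p-values were 0.9 and 0.667.

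For each gene the named genes with the most similar pattern were found among 1827, by Pearson's r of log2 values over the 10 libraries, taken as deviations from the mean of the own controls. For Slc18a3 they were Csrp2 (r = 0.998), a LIM domain protein of muscle, Cldn15 (r = 0.996), a tight junction claudin, and Otop2 (r = 0.996), a proton channel. For Slc5a7 they were Armc3 (r = 0.992), an armadillo repeat protein, Chrna3 (r = 0.990), a nicotinic receptor subunit, and Tfr2 (r = 0.990), a transferrin receptor. Slc18a3 and Slc5a7 had r = 0.936 with each other. All these genes were named through their rise with treatment, and the values are deviations from the own controls. A high r is therefore largely fixed in advance for any gene so named. The spread of r over the 1827 genes was not computed. These values, also that of Slc18a3 with Slc5a7, are given as a description and set no pair apart. How much of r the treatment carries was not tested.

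Of 70 other genes listed for the cholinergic pathway, 17 had an identifier and all 17 were tested. With TSA 17 of 17 were called higher, which the source of the names nearly fixes, and with NaB 15 of 17. No median is given, since Lhx8, Gbx1, Gbx2, Mnx1 and Chrna1 had fewer than 10 reads in every control and passed the filter on low counts only through treated cultures. Of the 16 named through the TSA rows, 14 were called higher with NaB, beside the 87.2% of all genes named that way. Genes of the list without an identifier, among them the REST complex and the esterase anchors, are not analysed here.

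**Figure D2:**
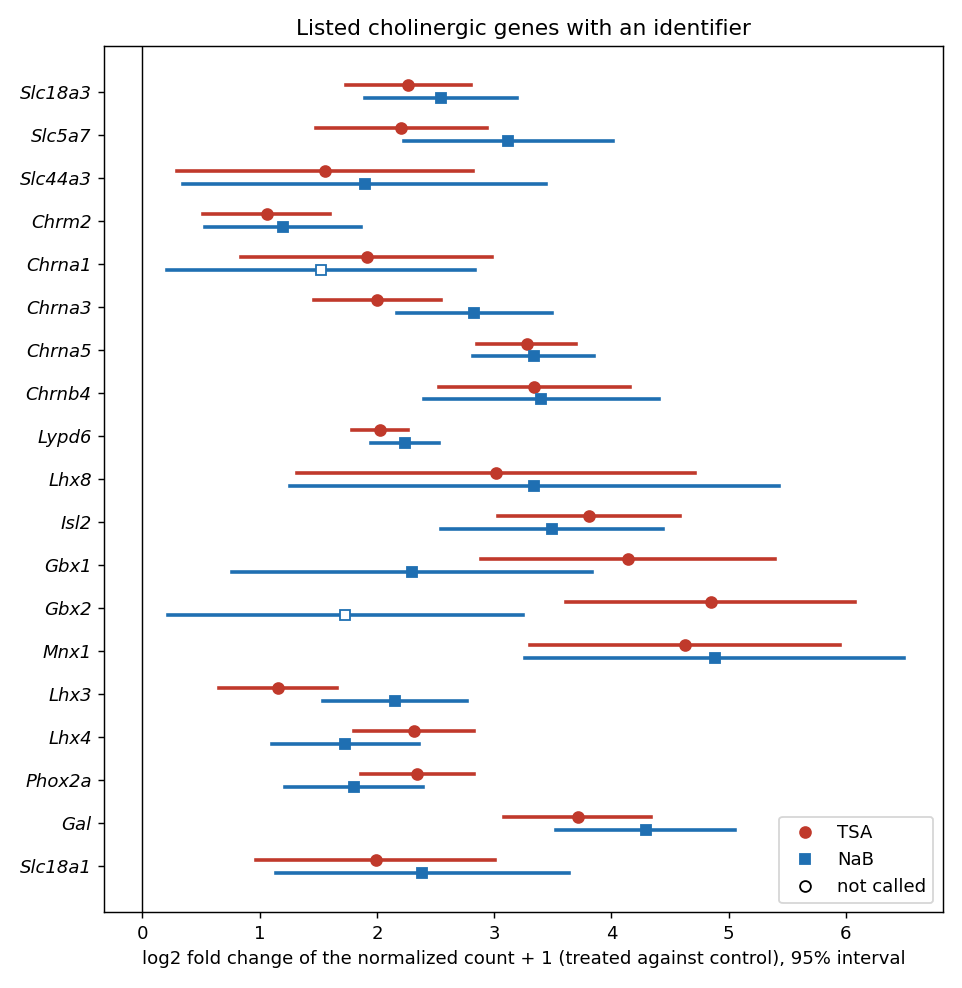
Log2 fold change of the normalized count + 1, treated against control, for the 19 cholinergic genes described (Slc18a3, Slc5a7 and the 17 others). Circles are TSA (3 against 3 cultures) and squares NaB (2 against 2), bars are 95% intervals of the limma fit, and open symbols were not called. Open symbols appear only for Chrna1 and Gbx2 with NaB.

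Receptors that respond to acetylcholine are either nicotinic, which are ion channels, or muscarinic, which act through G proteins. Of 16 nicotinic subunit genes listed 4 had an identifier, and all 4 were called higher with TSA and 3 with NaB, beside 22.5% and 21.2% of all tested genes. Among genes named through the TSA rows 87.2% were called with NaB, so these counts say nothing of the subunits as a group. Chrna5, Chrna3 and Chrnb4 are consecutive genes in the RefSeq table, and their subunits assemble into the nicotinic receptors of autonomic ganglia and of the habenula. Chrna5, an accessory subunit, had 97.0, 56.7 and 66.1 normalized counts in the TSA controls and 782, 591 and 744 with TSA. It had 85.9 and 91.9 in the NaB controls and 962 and 855 with NaB. Its groups lay far apart, with log2 changes of 3.28 (SE 0.19, adjusted p = 8.57e-07) and 3.34 (SE 0.23, adjusted p = 5.58e-06).

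Chrnb4, a subunit that takes part in ligand binding, had 5.27, 13.4 and 5.33 in the TSA controls and 103, 66.9 and 83.6 with TSA. It had 12.4 and 8.35 in the NaB controls and 152 and 90.6 with NaB, so that a gene with few reads in controls reached a mean 10.6 times as high with TSA and 11.7 times with NaB. Chrna3, the alpha subunit of these receptors, had 58.0, 35.0 and 48.0 against 226, 148 and 197 with TSA, and 39.3 and 27.1 against 272 and 209 with NaB. Its log2 change was 2.00 with TSA and 2.83 with NaB. Controls of the experiments overlapped for each of the 3 genes, and no difference between the drugs was called in the limma fit (adjusted p = 0.958 for Chrna5, 0.416 for Chrna3 and 0.982 for Chrnb4). For Chrna3 the difference was 0.83, with a 95% interval from -0.03 to 1.68.

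**Figure D3:**
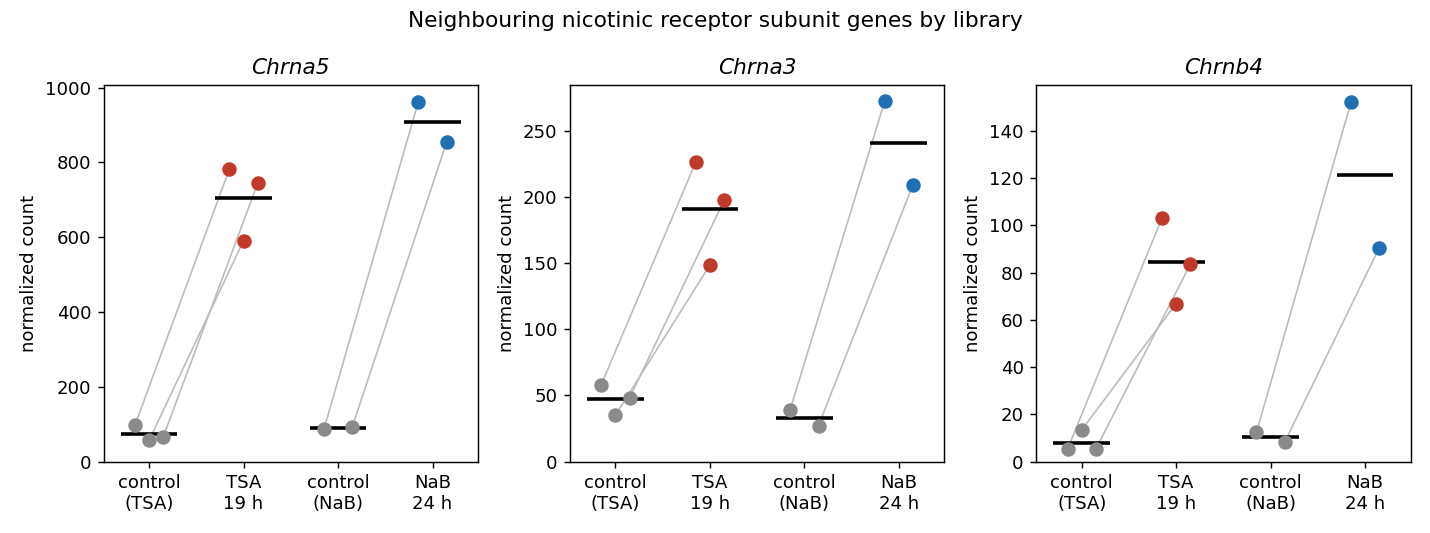
Normalized counts (linear axes from 0) of Chrna5, Chrna3 and Chrnb4 in the 10 cultures; points are cultures, black bars group means, and thin lines join pairs. Treated cultures lie above the controls of their experiment for each gene, and Chrnb4 starts from at most 13.4 in controls.

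Chrna1, the alpha subunit of the muscle receptor, had 5.27, 6.18 and 1.07 in the TSA controls and 11.3, 19.9 and 18.5 with TSA. It had 6.21 and 8.35 in the NaB controls and 18.9 and 27.0 with NaB. It was called with TSA (log2 change 1.91, adjusted p = 0.00585) and missed the call with NaB (1.52, adjusted p = 0.0503; with the pairs as a term 0.0347). It was called with NaB in 9 of 21 alternative settings, among them edgeR with the deposited size factors (adjusted p = 0.0216) and with TMM (0.0224). Chrm2, an inhibitory muscarinic receptor that also serves as autoreceptor on cholinergic terminals, was the 1 of 5 muscarinic genes with an identifier. It had 60.1, 67.0 and 60.8 against 142, 125 and 129 with TSA, and 58.0 and 31.3 against 78.4 and 125 with NaB. These groups did not overlap, and the log2 change was 1.06 with TSA and 1.20 with NaB, both called. The NaB call of Chrm2 was lost without NaB control replicate 5 (0.76, adjusted p = 0.0591) and without NaB replicate 2 (0.86, adjusted p = 0.0707).

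Lypd6 encodes a Ly6 protein that modulates nicotinic receptors. It had 371, 373 and 405 in the TSA controls and 1761, 1344 and 1622 with TSA, and 369 and 322 in the NaB controls and 1651 and 1605 with NaB. Its log2 changes, 2.03 (SE 0.11) and 2.24 (SE 0.13), had the narrowest intervals of the 19 genes. Slc44a3, which encodes a choline transporter-like protein, was named through the NaB rows alone, so its TSA contrast was the one the name did not use. It had 3.16, 11.3 and 1.07 in the TSA controls and 15.9, 17.2 and 7.77 with TSA, groups that overlapped. With NaB it went from 11.4 and 11.5 to 43.5 and 47.2. Its calls lay near the threshold: that with TSA (1.56, adjusted p = 0.0360) held in 9 of 21 alternative settings and that with NaB (1.90, adjusted p = 0.0407) in 13 of 21, and leaving out any library of the NaB experiment ended the NaB call (adjusted p from 0.110 to 0.135) with the change at 1.84 to 1.96. The TSA call was lost without TSA control replicate 1 or 3 or TSA replicate 1 or 2, with changes from 0.96 to 1.46 (adjusted p from 0.0881 to 0.130), and narrowly without either NaB replicate.

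Transcription factors that specify cholinergic neurons in the forebrain, hindbrain and spinal cord formed the largest named group. Of 13 listed 8 had an identifier, and 8 were called higher with TSA and 7 with NaB, beside 22.5% and 21.2% of all tested genes and, with NaB, 87.2% of those named through the TSA rows. These counts are near what the naming gives and say nothing of the group. Lhx8, Gbx1, Gbx2 and Mnx1 are among those that passed the filter only through treated cultures, so they had to differ. Isl2, Mnx1, Lhx3 and Lhx4 are homeobox genes of motor neurons. Isl2 had 25.3, 12.4 and 9.60 in the TSA controls and 271, 142 and 262 with TSA, and 16.6 and 16.7 in the NaB controls and 223 and 175 with NaB. The change of Isl2 was 3.81 and 3.50 on the log2 scale.

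Mnx1 had 2.11, 0 and 0 in the TSA controls and 44.1, 16.3 and 59.3 with TSA. It had 1.04 and 0 in the NaB controls and 38.7 and 43.4 with NaB. No control culture held more than 2 reads, and against 3 reads the mean was at least 12.7-fold higher in TSA cultures and at least 13.2-fold in NaB cultures. Lhx4 had 19.0, 25.8 and 13.9 against 96.6, 98.6 and 100.1 with TSA, and 21.7 and 20.9 against 71.8 and 74.2 with NaB. All its NaB cultures lay below all TSA cultures, an order whose share over all tested genes was not computed. No difference between the drug effects was called (limma, adjusted p = 0.543). Lhx3 had 41.1, 38.1 and 35.2 against 120.0, 75.1 and 70.9 with TSA, and 18.6 and 21.9 against 97.3 and 89.7 with NaB. As for Slc5a7, the NaB controls of Lhx3 lay below the TSA controls (log2 difference -0.88), but this was not called (adjusted p = 0.101).

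Lhx8 and Gbx1 act in the cholinergic lineage of the basal forebrain, and Gbx2 in striatal cholinergic interneurons and at the boundary of midbrain and hindbrain. Lhx8 had 0, 0 and 4.27 in the TSA controls and 23.4, 6.33 and 14.6 with TSA, and 3.11 and 0 in the NaB controls and 19.8 and 19.3 with NaB. It was called with both drugs. The call with NaB, where the mean was at least 6.27-fold higher, was lost without NaB control replicate 5 (log2 change 2.32 in place of 3.34, adjusted p = 0.0976). It was also lost without NaB replicate 1 (3.32, adjusted p = 0.0538) or NaB replicate 2 (3.36, adjusted p = 0.0520), where the change hardly moved. Gbx1 had no read in the TSA controls and 19.7, 9.95 and 23.3 normalized counts with TSA, at least 5.60-fold higher. In the NaB controls it had 3.11 and 0 and with NaB 10.4 and 7.71, at least 2.90-fold higher. The log2 change of Gbx1 with NaB was 2.30 and was called (limma, adjusted p = 0.0170). The call was lost in edgeR with the deposited size factors (2.45, adjusted p = 0.0545) and in DESeq2 (2.54, adjusted p = 0.0848), where the change was about as large. It was also lost without NaB replicate 1 (log2 change 2.10) or NaB replicate 2 (2.49). Without NaB control replicate 5 it was lost as well, and there the change fell to 1.28.

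Gbx2 showed the widest gap between the drugs in this group. It had 0, 2.06 and 0 in the TSA controls and 39.4, 29.9 and 57.3 with TSA, at least 13.4-fold higher. It had 4.14 and 5.22 in the NaB controls and 32.1 and 9.64 with NaB, a log2 change of 1.73 that missed the call (adjusted p = 0.0531; with the pairs as a term 0.0466). It was called with NaB in 9 of 21 alternative settings, among them edgeR (adjusted p = 0.0315 and 0.0325) and DESeq2 (0.0258). The change ran from 0.91 without NaB replicate 1 to 2.55 without NaB replicate 2. The difference between the drugs, -3.11 (95% interval -5.07 to -1.16), was not called either (limma, adjusted p = 0.201), and was called in none of 19 alternatives. Phox2a, which directs noradrenergic and certain cranial motor neurons and is thus no marker of cholinergic cells alone, had 15.8, 18.5 and 17.1 against 89.1, 87.7 and 96.2 with TSA. With NaB it went from 26.9 and 16.7 to 74.7 and 79.1, log2 changes of 2.34 and 1.81.

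**Figure D4:**
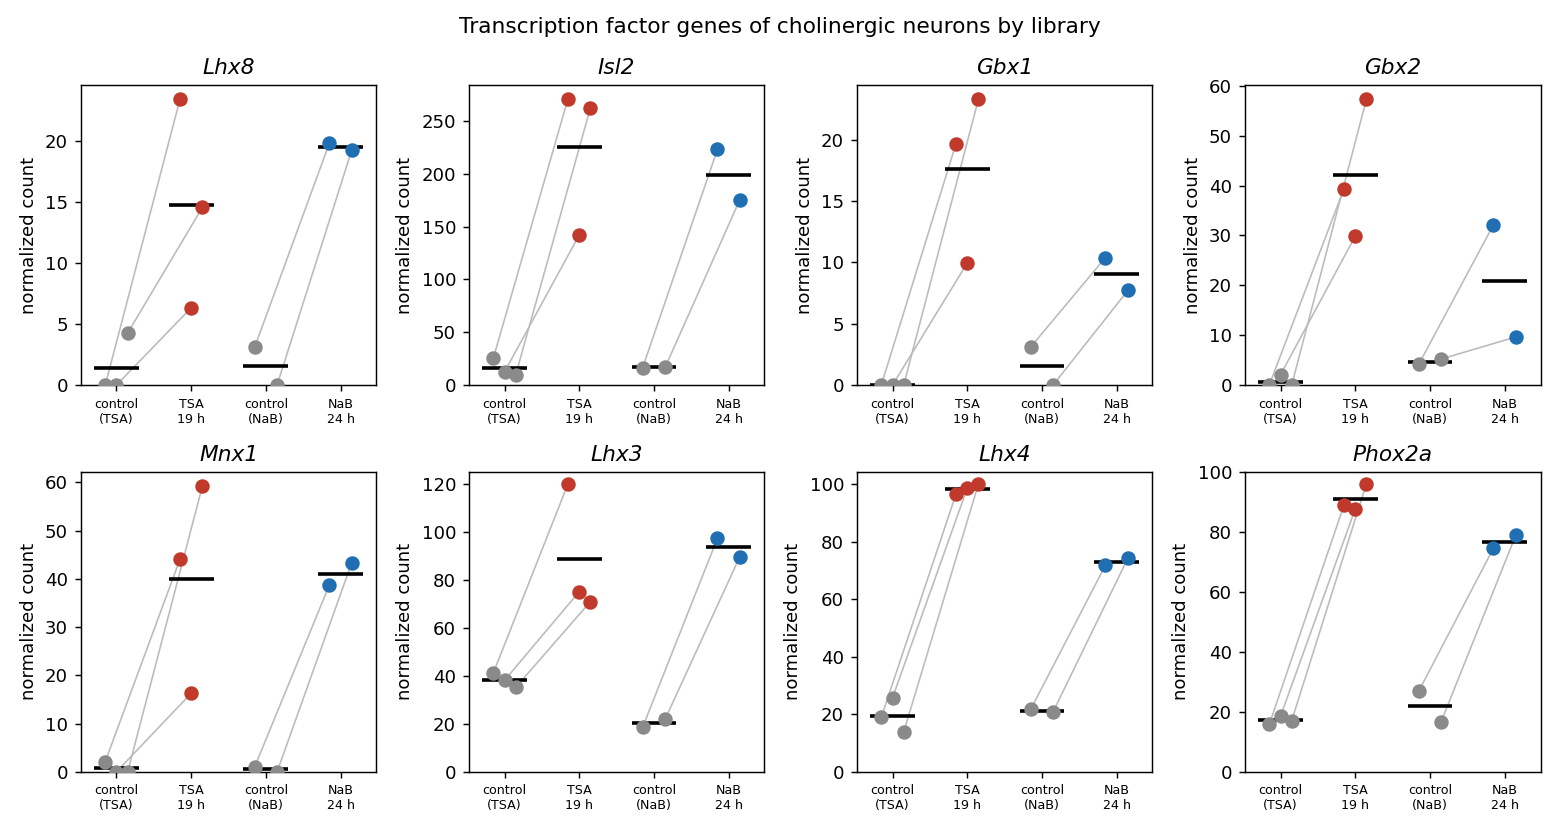
Normalized counts (linear axes from 0) of the 8 transcription factor genes with an identifier in the 10 cultures; points are cultures, black bars group means, and thin lines join pairs. Gbx1, Gbx2, Mnx1 and Lhx8 have at most 5.22 in any control, and Gbx2 is lower with NaB (32.1 and 9.64) than in all but 1 of the cultures with TSA (29.9 to 57.3).

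Gal encodes galanin, a peptide that cholinergic neurons of the basal forebrain contain in some mammals and that other neurons use as well. It had 9.49, 9.27 and 14.9 in the TSA controls and 219, 128 and 134 with TSA, and 11.4 and 16.7 in the NaB controls and 331 and 253 with NaB. The cultures with NaB all lay above those with TSA, and the share of all tested genes with that order was not computed. The log2 changes were 3.71 (SE 0.28) with TSA and 4.29 (SE 0.35) with NaB, which did not differ in a called way (limma, adjusted p = 0.636). Slc18a1 belongs to the same transporter family as Slc18a3 but loads monoamines. It had 5.27, 12.4 and 13.9 against 29.1, 28.9 and 85.5 with TSA, and 21.7 and 14.6 against 112 and 84.8 with NaB, with log2 changes of 1.99 and 2.39.

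Of the 6 protein-coding genes nearest to Chat and Slc18a3 in the RefSeq table, Drgx was the only one with an identifier. Drgx, a homeobox gene of sensory neurons, had 3.16, 3.09 and 2.13 in the TSA controls and 12.2, 9.95 and 14.6 with TSA, and 3.11 and 2.09 in the NaB controls and 15.1 and 14.5 with NaB. The means were at least 3.88-fold and at least 4.74-fold higher than 3 reads. No control held more than 3 reads of Drgx, so it passed the filter on low counts only through treated cultures and had to differ. None of the genes nearest to Slc5a7 and Ache had an identifier.

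Markers of other cell types could be named under the same limit as the cholinergic genes, so markers that the authors did not call higher have no name here. Flt1 and Rgs5, the 2 of 5 endothelial and pericyte markers with an identifier, summed to between 5.15 and 7.47 normalized counts in the TSA controls and to between 109 and 141 with TSA. They summed to 10.4 and 15.7 in the NaB controls and to 133 and 140 with NaB. Both were called higher with both drugs, beside 22.5% of all tested genes with TSA and 21.2% with NaB. Flt1 had at most 5 reads in any control and Rgs5 at most 12, in NaB control replicate 5. Both thus passed the filter on low counts only through treated cultures, so they had to differ and nothing is read from these calls. Flt1, a VEGF receptor, had 98.5, 85.0 and 109 normalized counts with TSA and 74.7 and 89.7 with NaB. Of 10 interneuron markers Pvalb alone had an identifier, with 3.16, 7.21 and 1.07 against 11.3, 11.8 and 14.6 with TSA and 20.7 and 12.5 against 33.1 and 45.3 with NaB. It was called with TSA and not with NaB (limma, adjusted p = 0.0984), and the other 9 interneuron markers are not analysed here, so the list has no direction. Of 4 fibroblast markers Col1a1 had one, and TSA control replicate 2 stood apart with 47.4 beside 909 and 1379 in the other TSA controls. Col1a1 had 798, 696 and 879 with TSA, 149 and 137 in the NaB controls and 876 and 961 with NaB, and it was not called with either drug (with the pairs as a term it was called with NaB, adjusted p = 0.0117). Excitatory neuron, astrocyte, oligodendrocyte and microglia markers had no identifier. The part of these cell types in the results on cholinergic genes was not tested.

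TSA replicate 2 had the lowest value of the 3 cultures with TSA in 15 of the 19 cholinergic genes, among them Slc18a3 and Slc5a7. It was the lowest in 50.3% of the 3540 genes called higher with TSA. Without TSA replicate 2 the log2 change with TSA was 2.41 for Slc18a3 and 2.33 for Slc5a7, and both genes stayed called with both drugs.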

How the data were processed

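The authors mapped reads of poly(A)-selected RNA to Rnor_6.0 with STAR 2.7.9a, counted them per gene with featureCounts 2.0.1 and applied the median-of-ratios normalization of DESeq2 1.29. The deposited signal is this normalized count. Division by the smallest value above 0 in each library gave whole reads for 100% of values (tolerance 0.01). Since the values are normalized, limma 3.58.1 (R 4.3.3) replaced the edgeR test planned for raw counts, and the recovered reads were tested with edgeR 4.0.16 and DESeq2 1.42.0 as alternatives.

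Of 24293 genes with a read, filterByExpr (minimum count 10) kept 15717. log2(value + 1) was fitted with a trend over all 10 libraries in 4 groups, two-sided. The log2(value + 1) scale understates changes of low genes. A gene was called at an adjusted p under 0.05 and a log2 change of at least 0.5. Where no library of the reference group exceeded 3 reads, the fold was set against 3 reads per library and is a lower bound.

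TSA pairs follow the numbers in the titles and NaB pairs the consecutive library names. The study's methods state that a control and its treated culture shared a plate. Residuals of paired libraries correlated with r = 0.284, 0.392 and 0.314 for TSA and 0.342 for both NaB pairs, which share 1 value. Cultures came from different biological replicates according to the methods.

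Symbols came from readable rows of the study's gene table (1911 identifiers), of which no fold change was used. Certain listed genes are not reported here and were left out of the counts. The members and gene lists were chosen with earlier results of these data known. Named were the members, listed pathway and marker genes with an identifier, nearest genes of each locus and the 3 genes most like each member. Sequences are from RefSeq (GRCr8), with a window for all 4 members.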

Additional observations from a re-analysis of the deposited data

How the results depend on the processing

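With a minimum log2 change of 1 in place of 0.5, 3416 genes were called with TSA (6644 before) and 3450 with NaB (6521 before), and 105 between the controls (243 before). With each library left out these counts ran from 6143 to 6753, from 5676 to 6578 and, between the controls, from 22 (without NaB control replicate 5) to 461 (without TSA control replicate 2). DESeq2 called 580 genes between the controls, and 104 were called without a filter. The 47 genes that differed between the drug effects became 255 in DESeq2, 71 with library totals, 31 without a filter, 422 with all 5 controls as 1 group and 404 with the replicate block, and from 1 (without NaB control replicate 5) to 45 with each library left out. The cause of these changes was not tested.

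The lower control level of Slc5a7 in the NaB experiment was not called in edgeR with the deposited size factors (-1.74, adjusted p = 0.0682) or TMM (-1.73, adjusted p = 0.0689), without a filter (-1.77, adjusted p = 0.0780), or with any library left out other than TSA control replicate 2 and NaB control replicate 4. A lone library left in a NaB group was assumed to vary like the other groups. Over all libraries left out it ran from -2.38 (without NaB control replicate 4) to -1.16 (without replicate 5). A mean of at least 50 normalized counts left 10 listed genes called higher with TSA and 10 with NaB, since fewer were tested. With a library left out, 16 to 17 were called with TSA and 11 to 17 with NaB. Library totals moved the median change of all genes to 0.20 with TSA and 0.13 with NaB. The replicate block changed the calls of Chrna1 and Gbx2 with NaB, and of no other of the 19 cholinergic genes, and for Slc18a3 minus Slc5a7 gave -0.26, with no call to be had, since a permutation within 5 pairs cannot reach 0.05. Without NaB control replicate 5 that difference was 0.11. Of 774 values of the other listed genes and Drgx under alternatives, 725 stayed on the same side of the threshold, 31 lost a call, 18 gained one and 0 changed sign. With NaB, Chrna1 was called without TSA control replicate 2 or 3, and Gbx2 without TSA control replicate 2 or NaB replicate 2. The planned comparison of Slc18a3 with Chat was not run, since Chat had no identifier. With 2 or 3 libraries a group and fewer than 10 reads in many controls, counting error is wide for Lhx8, Gbx1, Gbx2 and Mnx1.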
